A study of Mus musculus with 14 samples.

Results

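The expression of 10 genes of the islet vasculature was followed in isolated mouse pancreatic islets: the angiogenic ligand gene Vegfa and 9 genes of blood vessel endothelium, namely Kdr, Flt1, Tek, Tie1, Pecam1, Cdh5, Plvap, Esm1 and Vwf. The genes were named for their known role in vessels and not by any threshold on these data, and all 10 were matched, each to 1 transcript cluster (the set of probes that reports 1 gene), among the 19938 genes tested. The clusters are 10451198 for Vegfa, 10530692 for Kdr, 10535807 for Flt1, 10505954 for Tek, 10515771 for Tie1, 10392221 for Pecam1, 10574438 for Cdh5, 10579525 for Plvap, 10407281 for Esm1 and 10541910 for Vwf. The 14 arrays came from the islets of mice aged 11 weeks on a C57BL/6 and NMRI (1:1) background, untreated and kept free of specific pathogens. There were 5 arrays of IKK2-CApdx-1 mice, called IKK2-CA from here on, which were diabetic and in which β-cells express constitutively active IKK2, a kinase that switches on NF-κB, through the driver Pdx-1-tTA. There were 4 arrays of Pdx-1+/- mice, in which the same driver allele leaves a single working copy of the β-cell transcription factor gene Pdx-1. There were 5 arrays of control mice, whose alleles the labels do not give further. The driver is thus shared by IKK2-CA and Pdx-1+/- mice, so that IKK2-CA against Pdx-1+/- holds the driver constant and IKK2-CA against control does not. Diabetes came with the IKK2-CA label, and the kinase and diabetes cannot be told apart here.

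Islets are among the most densely vascularised tissues. Their capillaries are lined by fenestrated endothelium, which is kept by vascular endothelial growth factor A made largely in β-cells, and mouse islets that lack it have fewer capillaries and fewer fenestrae. The ligand acts on the endothelial receptors encoded by Kdr (VEGFR2, the main signalling receptor) and Flt1 (VEGFR1, which binds the ligand tightly and signals weakly). A second system, the angiopoietins and their receptor Tek (Tie2) with its partner Tie1, keeps mature vessels stable.

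Values are robust multichip average (RMA) signals read as log2, so a difference of 1 is a doubling. They compare arrays for the same gene and do not rank genes against each other. Array medians lay between 6.45 and 6.55. The β-cell gene Ins2 was between 12.31 and 12.69 on every array, and the 9 endothelial genes and 30 of 30 further endothelial genes sought were measured. The acinar genes Cpa1 (13.615 to 13.705) and Ctrb1 (13.644 to 13.725) were also high on every array, where the highest signal of any gene was 13.644 to 13.725. Exocrine tissue may thus have been in every preparation, and its vessels cannot be told apart from islet vessels here. Some arrays stood apart in genes of other tissues. Pdx-1+/- array 4 and control array 3 carried the intestinal genes Sis (9.15 and 6.05) and Fabp2 (9.09 and 6.58), and IKK2-CA array 5 carried the fat cell genes Adipoq (10.60) and Plin1 (9.34). Results are therefore also given without IKK2-CA array 5 and Pdx-1+/- array 4, called the 2 arrays that stood apart. The labels do not say that each array is a separate mouse, so p-values measure the spread between these samples, which may be technical. In whole islets, fewer endothelial cells and less RNA per endothelial cell cannot be told apart.

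Promoters are shown as background to the genes, and no motif was tested against the signals. ETS factors are known regulators of vessel genes, and NF-κB is the factor that IKK2 switches on. In all, 6 of the 10 genes (Vegfa, Kdr, Flt1, Tek, Tie1 and Esm1) had an entry in the RefSeq promoter table. Printed are a ligand, a receptor and a secreted endothelial product, each as the 250 bases before the annotated start on GRCm38.p6: Vegfa at chr17:46032378-46032627 (minus strand), Tie1 at chr4:118489850-118490099 (minus strand) and Esm1 at chr13:113209409-113209658 (plus strand). Capitals mark matches on either strand to the ETS core GGAAG, the hypoxia-inducible factor core ACGTG or GCGTG, the GC box GGGCGG and the NF-κB consensus.
Vegfa: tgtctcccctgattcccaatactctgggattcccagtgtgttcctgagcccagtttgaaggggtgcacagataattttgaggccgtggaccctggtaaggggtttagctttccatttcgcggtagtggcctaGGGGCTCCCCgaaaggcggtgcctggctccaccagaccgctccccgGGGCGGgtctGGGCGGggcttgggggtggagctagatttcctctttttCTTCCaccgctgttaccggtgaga
Tie1: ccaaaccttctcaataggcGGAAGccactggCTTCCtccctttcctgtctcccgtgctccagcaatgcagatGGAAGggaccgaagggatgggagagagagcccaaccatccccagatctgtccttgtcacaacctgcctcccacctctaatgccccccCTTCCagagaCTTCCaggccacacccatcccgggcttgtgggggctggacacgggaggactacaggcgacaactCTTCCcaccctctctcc
Esm1: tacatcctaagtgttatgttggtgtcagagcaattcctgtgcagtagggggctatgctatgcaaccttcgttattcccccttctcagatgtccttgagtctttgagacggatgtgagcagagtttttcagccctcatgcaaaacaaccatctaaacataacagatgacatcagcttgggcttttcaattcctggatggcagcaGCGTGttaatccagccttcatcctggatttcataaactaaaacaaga

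The printed Vegfa window held an NF-κB consensus match 118 to 109 bases before the start, 2 GC boxes at 72 to 67 and 62 to 57, and 1 ETS core at 24 to 20. The NF-κB consensus matched at this place on both strands and is counted once. All 3 windows lie outside the annotated gene, just before its start. The Tie1 window held 6 ETS cores and no match to the other motifs, and the Esm1 window held 1 hypoxia-inducible factor core (GCGTG) at 47 to 43 and no match to the others. Over 32851 RefSeq promoter windows of the same length, the ETS core was found in 64.1%, the hypoxia-inducible factor core in 38.6%, the GC box in 32.7% and the NF-κB consensus in 7.25%. The NF-κB match was not particular to this window: the Kdr and Flt1 windows, which lie inside their annotated genes and are not printed, also matched it. The table gives Vegfa a second start inside the gene, whose window held no NF-κB match, 2 hypoxia-inducible factor cores, 1 ETS core and 1 GC box. A match is a run of letters and not a shown binding site.

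None of the 10 genes passed the test in any of the 3 comparisons, with limma over all genes and a Benjamini-Hochberg adjusted p of 0.05 as the threshold. In IKK2-CA against Pdx-1+/- islets 0 of 10 passed, beside 0.0752% of all genes, and 0 had an unadjusted p under 0.05. In IKK2-CA against control islets 0 of 10 passed, beside 2.25% of all genes, and 5 of 10 (Vegfa, Pecam1, Cdh5, Esm1 and Vwf) had an unadjusted p under 0.05, beside 15.7% of all genes. In Pdx-1+/- against control islets 0 of 10 passed, beside 0.0953% of all genes, and 0 had an unadjusted p under 0.05. For every gene the arrays of the groups overlapped in all 3 comparisons, while 2.43%, 4.2% and 1.88% of all genes had groups that did not overlap in these comparisons in the order given.

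The genes did not lie in 1 order of groups. For Vegfa, Esm1 and Flt1 the mean was lowest in IKK2-CA, then Pdx-1+/-, then control islets, and for Pecam1, Cdh5, Tie1, Plvap and Vwf it was highest in IKK2-CA, then Pdx-1+/-, then control islets. In IKK2-CA against control islets 5 of the 9 endothelial genes were above 0, with a median difference of 0.06, beside a median of −0.01 over all genes tested. In IKK2-CA against Pdx-1+/- islets 6 of the 9 were above 0, with a median of 0.01 (−0.02 over all genes), and in Pdx-1+/- against control islets 6 of the 9, with a median of 0.04 (−0.0049 over all genes). Without the 2 arrays that stood apart, 4 of the 9 were above 0 in IKK2-CA against Pdx-1+/- islets (median −0.19), 4 in IKK2-CA against control islets (median −0.07) and 7 in Pdx-1+/- against control islets (median 0.16). The last 2 comparisons share their control arrays. Over all genes and with all arrays, 45% were above 0 in IKK2-CA against Pdx-1+/-, 46.4% in IKK2-CA against control and 48.2% in Pdx-1+/- against control islets. Genes on the same arrays are not independent, so counts above 0 here and below are a description.

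**Figure D1:**
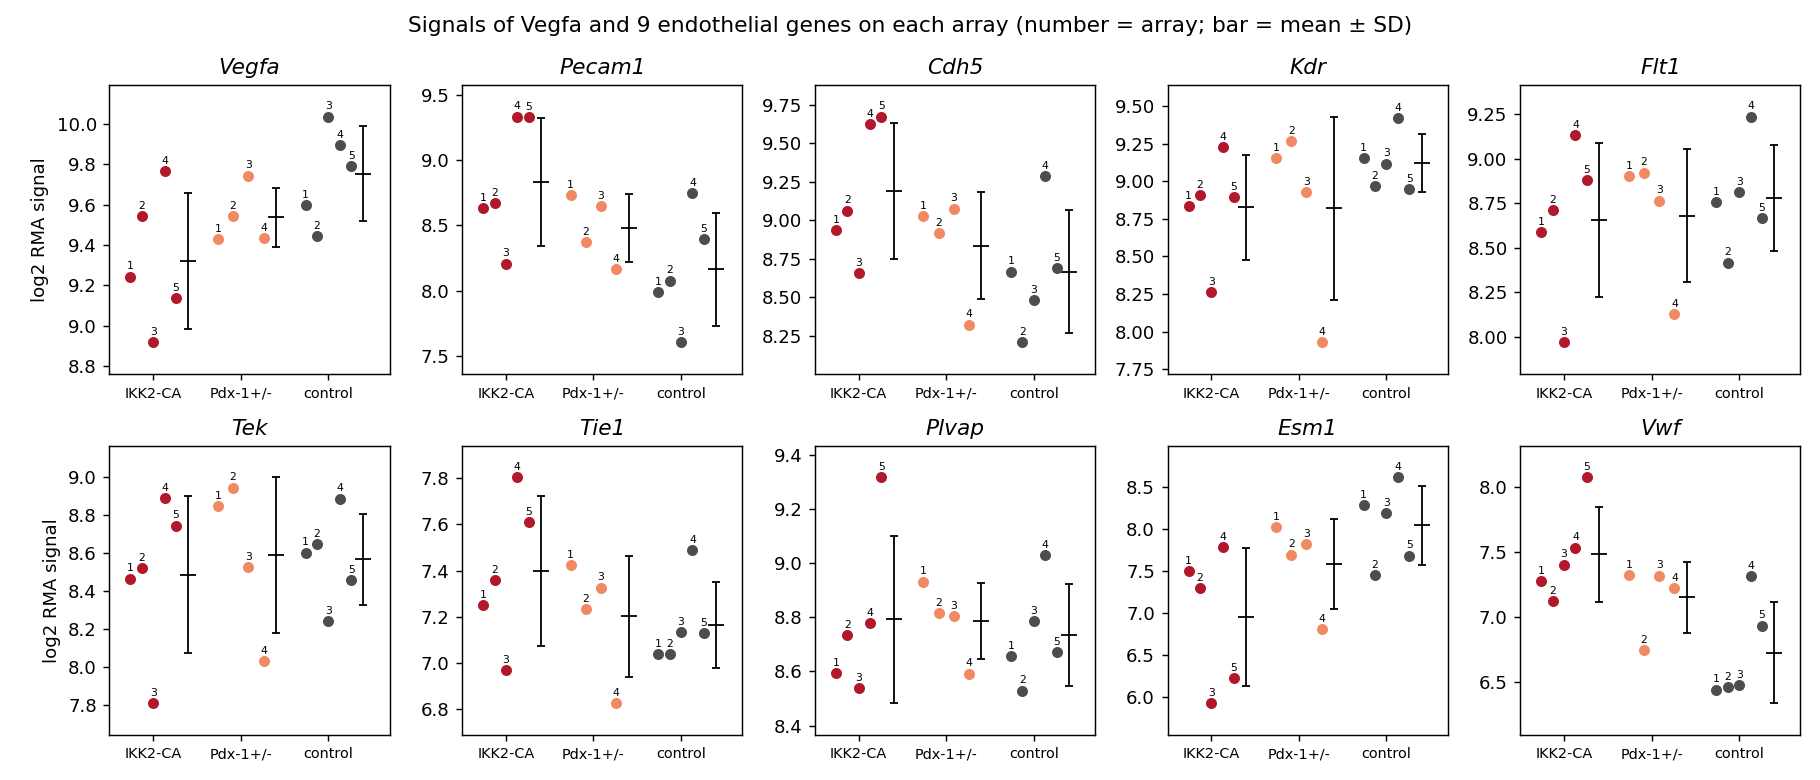
Signal (log2 RMA) of the 10 genes on each array, 1 panel a gene, with 5 IKK2-CA, 4 Pdx-1+/- and 5 control arrays from left to right, points for arrays and bars for group means with the SD. In every panel the groups overlap, and Esm1 has the widest range over the 14 arrays, from 5.93 to 8.61.

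Vegfa was 9.24, 9.54, 8.92, 9.77 and 9.14 on the IKK2-CA arrays, 9.43, 9.54, 9.74 and 9.43 on the Pdx-1+/- arrays and 9.60, 9.45, 10.04, 9.89 and 9.79 on the control arrays. IKK2-CA arrays 1, 3 and 5 lay below every control array, and the other two lay among the controls. The means were 9.32 ± 0.34 (SD, n = 5), 9.54 ± 0.15 (n = 4) and 9.75 ± 0.23 (n = 5) in IKK2-CA, Pdx-1+/- and control islets. The IKK2-CA minus control difference was −0.43 (SE 0.15, 95% confidence interval −0.75 to −0.11), a signal 1.35-fold lower, with an adjusted p of 0.162 in limma. The Pdx-1+/- mean lay between the others, at −0.22 (SE 0.16, interval −0.56 to 0.13) from control, and IKK2-CA minus Pdx-1+/- was −0.22 (SE 0.16, interval −0.56 to 0.13), with adjusted p-values of 0.999 and 0.891 in limma.

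Without IKK2-CA array 4, which had the highest Vegfa of its group, the IKK2-CA minus control difference of Vegfa was −0.54 with an adjusted p of 0.0402 in limma. This was the only 1 of 25 alternatives in which Vegfa passed. Leaving out the 2 arrays that stood apart gave −0.39, with an adjusted p of 0.229 in limma. Leaving out control array 3 as well, which carried intestinal genes and had the highest Vegfa of all arrays, gave −0.31. IKK2-CA array 4 was also the IKK2-CA array with the highest mean of 9 β-cell genes (0.10 log2 above the 14-array mean, against −1.07 to −0.30 on the other IKK2-CA arrays). The β-cell genes, which include Pdx1, Slc2a2, Mafa and G6pc2, were lower together in IKK2-CA than in control islets, with 9 of 9 below 0 and a median of −1.22. Of these, 6 passed the test as lower, beside 2.25% of all genes that passed in either direction. Pdx1 is 1 of the 6. Both groups with the driver keep a single working Pdx-1 copy, so a lower Pdx1 against control is no separate result. In Pdx-1+/- against control islets 9 of 9 were below 0 (median −0.79), none passing and 7 having an unadjusted p under 0.05 in limma. In IKK2-CA against Pdx-1+/- islets, which share the driver, 9 of 9 were below 0 (median −0.37) and none passed.

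Vegfa followed the β-cell genes from array to array within groups. After removing group means, Vegfa and the mean of these 9 genes correlated over 14 arrays with Pearson's r = 0.897 (permutation p = 0.00061, adjusted over 10 relations 0.0061) and Spearman's rho = 0.881 (permutation p = 0.00143, adjusted 0.0143). IKK2-CA arrays 3 and 4 were the 2 farthest from the median of Vegfa after group means were removed. Without them r was 0.839, with the group means still those of all 14 arrays. The points are whole-islet arrays, so the make-up of each islet preparation is shared by both measures. The genes most like Vegfa by the same measure were Scnn1b (r = 0.955), Ghr (0.955), Prrc2b (0.946), Trim9 (0.943) and Focad (0.941), none of which passed the test between IKK2-CA and control islets.

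Kdr was 8.83, 8.91, 8.26, 9.23 and 8.90 on the IKK2-CA arrays, 9.15, 9.27, 8.93 and 7.93 on the Pdx-1+/- arrays and 9.15, 8.97, 9.12, 9.42 and 8.95 on the control arrays. The lowest value was that of Pdx-1+/- array 4, the array with intestinal genes, and the other 3 Pdx-1+/- arrays lay between 8.93 and 9.27, against 8.95 to 9.42 on the control arrays. The IKK2-CA minus control difference was −0.30 (SE 0.23, 95% confidence interval −0.78 to 0.19, limma adjusted p 0.603). Between IKK2-CA and Pdx-1+/- islets the difference was 0.01 (SE 0.24, interval −0.51 to 0.52). Once IKK2-CA array 5 and Pdx-1+/- array 4 were left out it was −0.31 (limma adjusted p 0.593), so its direction turned without these arrays.

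Flt1, the other receptor of the ligand, lay between 7.97 and 9.13 on IKK2-CA, between 8.13 and 8.92 on Pdx-1+/- and between 8.42 and 9.24 on control arrays. Its means were 8.66 ± 0.44 (SD, n = 5), 8.68 ± 0.37 (n = 4) and 8.78 ± 0.30 (n = 5) in IKK2-CA, Pdx-1+/- and control islets. IKK2-CA minus control was −0.12 (SE 0.21, 95% confidence interval −0.57 to 0.33, limma adjusted p 0.867), and the arrays of all groups overlapped. Flt1 was −0.10 in Pdx-1+/- against control islets with all arrays, and 0.08 without the 2 arrays that stood apart.

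Tek, the angiopoietin receptor, lay between 7.81 and 8.89 on IKK2-CA, between 8.03 and 8.95 on Pdx-1+/- and between 8.24 and 8.89 on control arrays. The IKK2-CA minus control difference was −0.08 (SE 0.21, 95% confidence interval −0.52 to 0.36). Tie1, its partner, lay between 6.97 and 7.80 on IKK2-CA, between 6.83 and 7.42 on Pdx-1+/- and between 7.04 and 7.49 on control arrays. IKK2-CA minus control was 0.23 (SE 0.15, interval −0.10 to 0.56, limma adjusted p 0.524). The lowest IKK2-CA value of both genes was that of array 3, and the lowest Pdx-1+/- value of both was that of array 4.

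Pecam1 encodes the adhesion molecule CD31 of endothelial junctions, which leukocytes and platelets carry too. It was 8.63, 8.67, 8.21, 9.34 and 9.33 on the IKK2-CA arrays, 8.73, 8.37, 8.65 and 8.16 on the Pdx-1+/- arrays and 7.99, 8.08, 7.60, 8.75 and 8.40 on the control arrays. IKK2-CA arrays 4 and 5 lay above every control array. IKK2-CA minus control was 0.67 (SE 0.24, 95% confidence interval 0.17 to 1.18), a 1.59-fold higher signal, with an adjusted p of 0.162 in limma. The value was 0.55 without the 2 arrays that stood apart, with an adjusted p of 0.23.

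Cdh5 encodes VE-cadherin, which holds neighbouring endothelial cells together. It was 8.94, 9.06, 8.66, 9.62 and 9.67 on the IKK2-CA arrays, 9.03, 8.92, 9.08 and 8.32 on the Pdx-1+/- arrays and 8.67, 8.21, 8.48, 9.29 and 8.69 on the control arrays. Here too IKK2-CA arrays 4 and 5 were the highest of all 14. IKK2-CA minus control was 0.52 (SE 0.23, 95% confidence interval 0.04 to 1.01, limma adjusted p 0.274) and 0.40 without the 2 arrays that stood apart. Plvap, which forms the diaphragms of fenestrae, lay between 8.54 and 9.32 on IKK2-CA, between 8.59 and 8.93 on Pdx-1+/- and between 8.53 and 9.03 on control arrays. Its IKK2-CA minus control difference was 0.06 (SE 0.14, interval −0.24 to 0.35), and −0.07 without the 2 arrays.

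Esm1 encodes endocan, a proteoglycan that endothelial cells secrete and that is known as a target of VEGF signalling in tip cells. Esm1 was 7.50, 7.30, 5.93, 7.79 and 6.23 on the IKK2-CA arrays, 8.02, 7.69, 7.82 and 6.81 on the Pdx-1+/- arrays and 8.28, 7.45, 8.18, 8.61 and 7.68 on the control arrays. IKK2-CA arrays 3 and 5 were the lowest of all 14, and 3 of the 5 IKK2-CA arrays lay below every control array. IKK2-CA minus control was −1.09 (SE 0.35, 95% confidence interval −1.84 to −0.34), a signal 2.13-fold lower, with an adjusted p of 0.129 in limma. The Pdx-1+/- mean of 7.58 ± 0.54 (SD, n = 4) lay between 6.95 ± 0.82 (n = 5) in IKK2-CA and 8.04 ± 0.47 (n = 5) in control islets.

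Among all genes tested Esm1 was one of the most variable within groups, with a residual SD of 0.63, at percentile 98.5. Without IKK2-CA array 4, the Esm1 array highest in its group, the difference was −1.30 with an adjusted p of 0.0478 in limma. Without the 2 arrays that stood apart it was −0.91, with an adjusted p of 0.157.

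Vwf encodes von Willebrand factor, a clotting protein stored in endothelial granules and also made by megakaryocytes. It was 7.28, 7.12, 7.40, 7.53 and 8.08 on the IKK2-CA arrays, 7.32, 6.75, 7.32 and 7.22 on the Pdx-1+/- arrays and 6.44, 6.46, 6.48, 7.31 and 6.93 on the control arrays. Control array 4 alone kept the IKK2-CA and control arrays from separating, and 3 of the 5 IKK2-CA arrays lay above it. In IKK2-CA minus control the difference was 0.76 (SE 0.20, 95% confidence interval 0.33 to 1.19), a 1.69-fold higher signal, with the lowest adjusted p of the 10 genes in that comparison, 0.0651 in limma. Pdx-1+/- minus control was 0.43 (SE 0.21, interval −0.03 to 0.88, limma adjusted p 0.999), and IKK2-CA minus Pdx-1+/- was 0.33 (SE 0.21, interval −0.12 to 0.79, limma adjusted p 0.861).

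Vwf passed the test in IKK2-CA against control islets under 3 of 25 alternatives: with quantile normalization (0.77, limma adjusted p 0.0492), with the replicate number as a block (0.76, limma adjusted p 0.0404) and without control array 4 (0.91, limma adjusted p 0.0432). It was 0.61 without the 2 arrays that stood apart, with an adjusted p of 0.102.

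**Figure D2:**
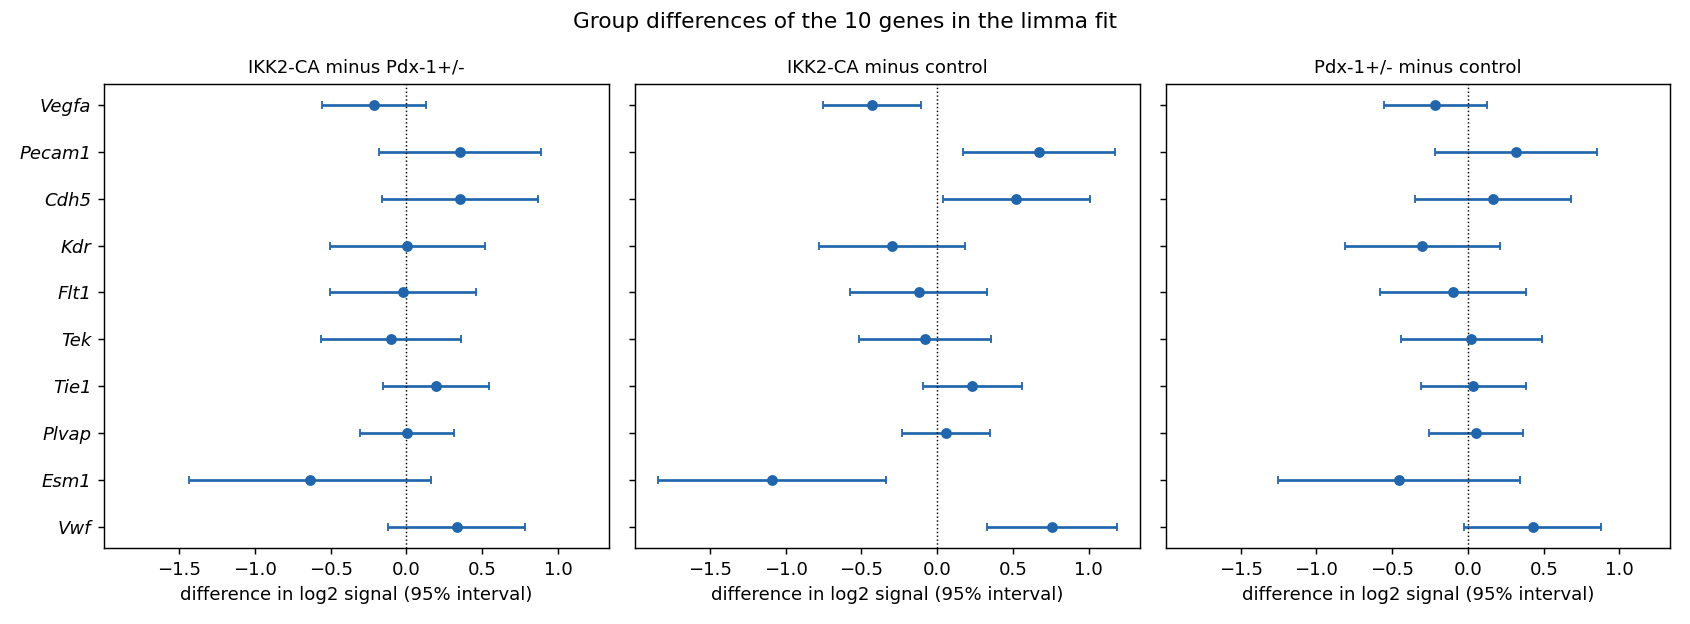
Difference in log2 signal of each of the 10 genes in IKK2-CA minus Pdx-1+/-, IKK2-CA minus control and Pdx-1+/- minus control islets, with 95% confidence intervals from limma over 14 arrays and a line at 0. Intervals of Vegfa and Esm1 lie below 0 and those of Pecam1, Cdh5 and Vwf above 0 in IKK2-CA minus control only, before adjustment over all genes, and the 3 comparisons were not tested against each other.

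Markers of blood cells were set beside Pecam1 and Vwf. Of 10 leukocyte markers, 9 were above 0 in IKK2-CA against control islets, with a median of 0.75. Of the 10, 1 passed the test, beside 2.25% of all genes: Itgax, the integrin CD11c of dendritic cells and macrophages, at 2.16 (SE 0.31, limma adjusted p 0.00395). The mean of the leukocyte list lay between −0.15 and 1.36 on IKK2-CA, between −0.28 and −0.07 on Pdx-1+/- and between −0.54 and −0.12 on control arrays, as deviations from the 14-array mean. Of 5 platelet and megakaryocyte markers, 2 were above 0, with a median of −0.01 and 0 that passed in limma or had an unadjusted p under 0.05. Their list mean lay between −0.26 and 0.11 on IKK2-CA, between −0.00 and 0.16 on Pdx-1+/- and between −0.15 and 0.16 on control arrays. RMA signals have no true zero, so absence of a marker could not be read. The part of leukocytes in the Pecam1 and Vwf values was not tested.

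Within groups, most of the 9 endothelial genes moved together from array to array. Pearson's r between pairs, over 14 arrays with group means removed, ran from −0.086 to 0.942 with a median of 0.726 over 36 pairs. It was highest between Flt1 and Tie1 (0.942), Cdh5 and Tie1 (0.927), Kdr and Flt1 (0.911) and Cdh5 and Flt1 (0.906). The lowest values were those of Vwf with Esm1 (−0.086) and Kdr (0.051), of Esm1 with Plvap (0.165) and of Vwf with Tek (0.204). The arrays share 1 islet preparation for all genes, so these values describe arrays and have no p.

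**Figure D3:**
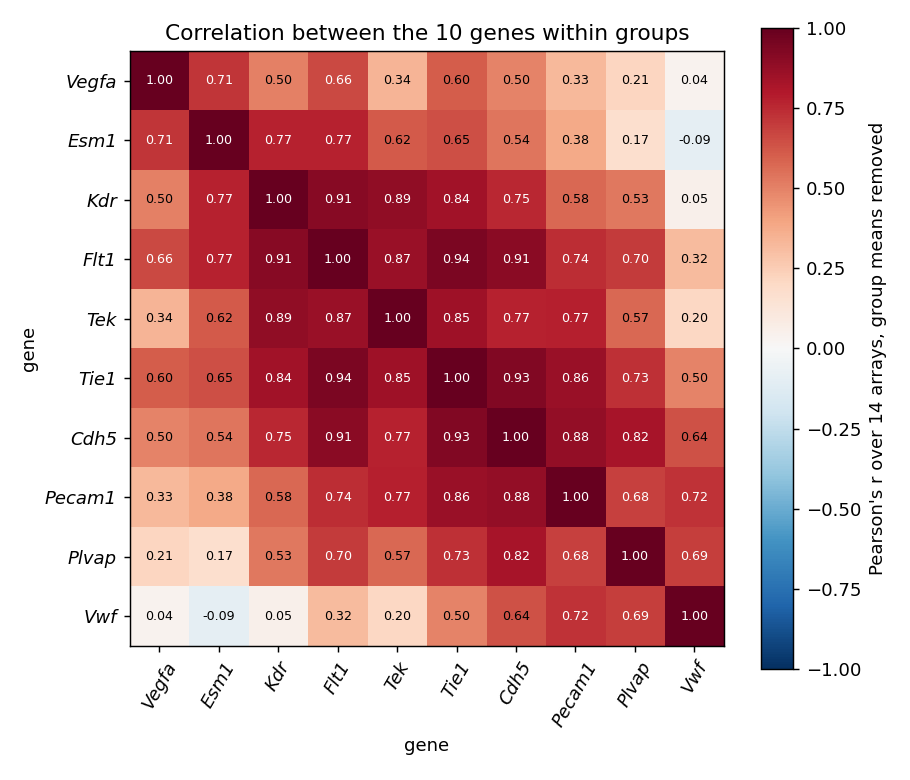
Pearson's r between the 10 genes over 14 arrays after removing group means, from −1 (blue) to 1 (red). A block of Kdr, Flt1, Tek, Tie1 and Cdh5 has values of 0.75 and above, while Vwf is near 0 with Vegfa, Esm1 and Kdr.

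The mean deviation of the 9 endothelial genes was −0.02, 0.02, −0.50, 0.43 and 0.28 on the IKK2-CA arrays, 0.23, 0.07, 0.11 and −0.47 on the Pdx-1+/- arrays and −0.07, −0.27, −0.16, 0.42 and −0.07 on the control arrays. Arrays with high and low vessel signal occurred in every group. The group means were 0.04 ± 0.36 (SD, n = 5), −0.01 ± 0.31 (n = 4) and −0.03 ± 0.27 (n = 5), closer together than the arrays within a group. The genes that followed this mean most closely by r were Zswim8 (0.947), Specc1l (0.946), Epas1 (0.945), which encodes the endothelial hypoxia-inducible factor HIF-2α, Eng (0.938), a TGF-β co-receptor of endothelium, and Hey2 (0.938), a Notch target.

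A difference between a pair of genes on the same array cancels any shift that both share. Both pairs below were chosen after their values were seen, so they are a description with no test, and only the change between groups can be read. Esm1 minus Cdh5 was −1.44, −1.76, −2.73, −1.84 and −3.44 on the IKK2-CA arrays, −1.01, −1.22, −1.26 and −1.52 on the Pdx-1+/- arrays and −0.39, −0.76, −0.30, −0.68 and −1.01 on the control arrays. Every IKK2-CA array lay below every control array, the highest Pdx-1+/- array and the lowest control array were level at −1.01, and Pdx-1+/- array 4 lay within the IKK2-CA range. Vwf minus Kdr was −1.56, −1.79, −0.86, −1.69 and −0.82 on the IKK2-CA arrays, −1.83, −2.52, −1.61 and −0.71 on the Pdx-1+/- arrays and −2.71, −2.51, −2.64, −2.11 and −2.01 on the control arrays. Every IKK2-CA array lay above every control array in this pair, whereas the Pdx-1+/- arrays overlapped both other groups. Alone, none of Esm1, Cdh5, Vwf and Kdr separated these groups. The genes of each pair differed in opposite directions in IKK2-CA minus control (Esm1 −1.09 and Cdh5 0.52, Vwf 0.76 and Kdr −0.30), which favours such a separation. How many other pairs separate was not counted.

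**Figure D4:**
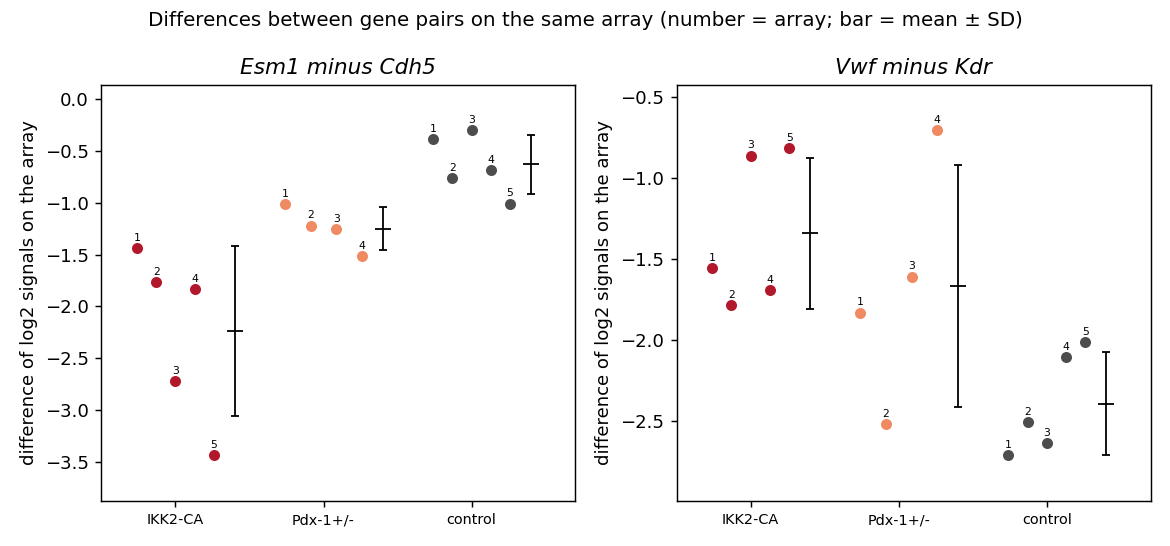
Esm1 minus Cdh5 and Vwf minus Kdr in log2 signal on each array, with IKK2-CA, Pdx-1+/- and control arrays from left to right and bars for the group means with the SD. For Esm1 minus Cdh5 the means are −2.24, −1.25 and −0.63 in IKK2-CA, Pdx-1+/- and control islets, and for Vwf minus Kdr they are −1.34, −1.67 and −2.40.

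Vegfa was also set against each endothelial gene within groups, by the correlation used for the β-cell genes. Esm1 had r = 0.713 (permutation p = 0.0194, adjusted over 10 relations 0.0714) and rho = 0.596 (permutation p = 0.065, adjusted 0.232), and r was 0.502 without IKK2-CA arrays 3 and 4. Flt1 had r = 0.662 (permutation p = 0.0214, adjusted 0.0714), rho = 0.516 (permutation p = 0.0954, adjusted 0.232) and r = 0.384 without these arrays. At the other end Vwf had r = 0.036 (permutation p = 0.915, adjusted 0.915) and rho = −0.046. None of the 9 endothelial genes passed after adjustment.

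Other endothelial genes gave a wider view of the same vessels. Of 30 measured, among them Eng, Emcn, Robo4, Cldn5 and Sox17, 27 were above 0 in IKK2-CA against control islets, beside 46.4% of all genes. None passed the test in limma, and 8 had an unadjusted p under 0.05, beside 15.7% of all genes. The median of the 30 was 0.22, beside −0.01 over all genes. Without the 2 arrays that stood apart 24 were above 0 and the median was 0.15. The largest values were those of Mmrn1, at 1.04 (SE 0.36, limma adjusted p 0.155), and of the sphingosine phosphate receptor S1pr1, at 0.64 (SE 0.20, limma adjusted p 0.113). Between IKK2-CA and Pdx-1+/- islets 28 of 30 were above 0 with a median of 0.22, but 18 of 30 with a median of 0.03 without the 2 arrays. In Pdx-1+/- against control islets 19 of 30 were above 0 with a median of 0.03, and 26 of 30 with a median of 0.12 without the 2 arrays. With array weights Mmrn1 (1.08, limma adjusted p 0.04) and S1pr1 (0.55, limma adjusted p 0.0317) passed in IKK2-CA against control islets.

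Of the 5 measured genes of activated endothelium, 2 passed the test in IKK2-CA against control islets, Vcam1 and Madcam1, beside 2.25% of all genes. Vcam1, which holds leukocytes to activated endothelium, was 8.58, 9.17, 9.62, 8.70 and 10.71 on the IKK2-CA arrays, between 7.92 and 8.20 on Pdx-1+/- and between 7.41 and 7.997 on control arrays. It rose by 1.62 in IKK2-CA against control islets (SE 0.31, limma adjusted p 0.0162) and passed in 24 of 25 alternatives, with an adjusted p of 0.0574 without control array 3. Madcam1, an addressin for gut-homing lymphocytes, was 8.81 and 8.56 on IKK2-CA arrays 3 and 5, between 6.30 and 6.50 on the other IKK2-CA arrays, between 5.04 and 5.40 on Pdx-1+/- and between 5.04 and 5.57 on control arrays. It rose by 2.04 (SE 0.43, limma adjusted p 0.0242) and passed in 19 of 25 alternatives, with limma adjusted p-values of 0.0603 to 0.067 without control array 1, 3, 4 or 5. All 5 measured genes of this list were above 0, with a median of 1.04, and Icam1 had 1.04 (SE 0.30, limma adjusted p 0.0901). Sele had 0.43 (SE 0.22, limma adjusted p 0.385) and Ackr1 0.28 (SE 0.15, limma adjusted p 0.403). For Icam1, Sele and Ackr1 the IKK2-CA and control arrays overlapped.

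IKK2-CA arrays 3 and 5, with the highest Madcam1, were also the lowest of all arrays in Esm1 and the highest in the mean of leukocyte markers (0.57 and 1.36). They were the lowest of all arrays in the mean of β-cell genes (−0.93 and −1.07) and in Vegfa (8.92 and 9.14) as well. Without IKK2-CA array 5 and Pdx-1+/- array 4, Vcam1 was 1.28 (limma adjusted p 0.00438) and Madcam1 1.73 (limma adjusted p 0.0398). Madcam1 did not pass when control array 3, which carried intestinal genes, was left out as well (1.80, limma adjusted p 0.084). With only the 2 groups compared in the fit it missed the threshold too (2.04, limma adjusted p 0.0621). Both genes can also be expressed by other cells, and the cell type was not tested. Between IKK2-CA and Pdx-1+/- islets Vcam1 was 1.33 (SE 0.33, limma adjusted p 0.235) and Madcam1 2.07 (SE 0.45, limma adjusted p 0.13), with every IKK2-CA array above every Pdx-1+/- array for both.

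Pericytes and smooth muscle surround the endothelium. All 11 measured markers were above 0 in IKK2-CA against control islets, with a median of 0.45, and 1 passed, beside 2.25% of all genes. All 11 were also above 0 in IKK2-CA against Pdx-1+/- islets, with a median of 0.36 and none that passed in limma (1 at an unadjusted p under 0.05), and 10 of 11 with a median of 0.21 without the 2 arrays that stood apart. Kcnj8, a potassium channel subunit of pericytes, was 6.91, 6.76, 6.89, 6.51 and 7.16 on the IKK2-CA arrays, between 6.27 and 6.59 on Pdx-1+/- and between 6.20 and 6.41 on control arrays, and rose by 0.53 (SE 0.11, limma adjusted p 0.0192). Kcnj8 passed in 22 of 25 alternatives, with limma adjusted p-values of 0.0511 to 0.0586 without IKK2-CA array 3 or control array 1 or 4. The list mean lay between −0.19 and 0.78 on IKK2-CA, between −0.42 and 0.19 on Pdx-1+/- and between −0.59 and 0.33 on control arrays, so the groups overlapped. Acta2 had 0.71 (SE 0.42, limma adjusted p 0.464) and Myh11 0.71 (SE 0.42, limma adjusted p 0.468), against 0.44 for Acta2 and 0.42 for Myh11 without IKK2-CA array 4; Acta2 was 0.41 without control array 3.

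**Figure D5:**
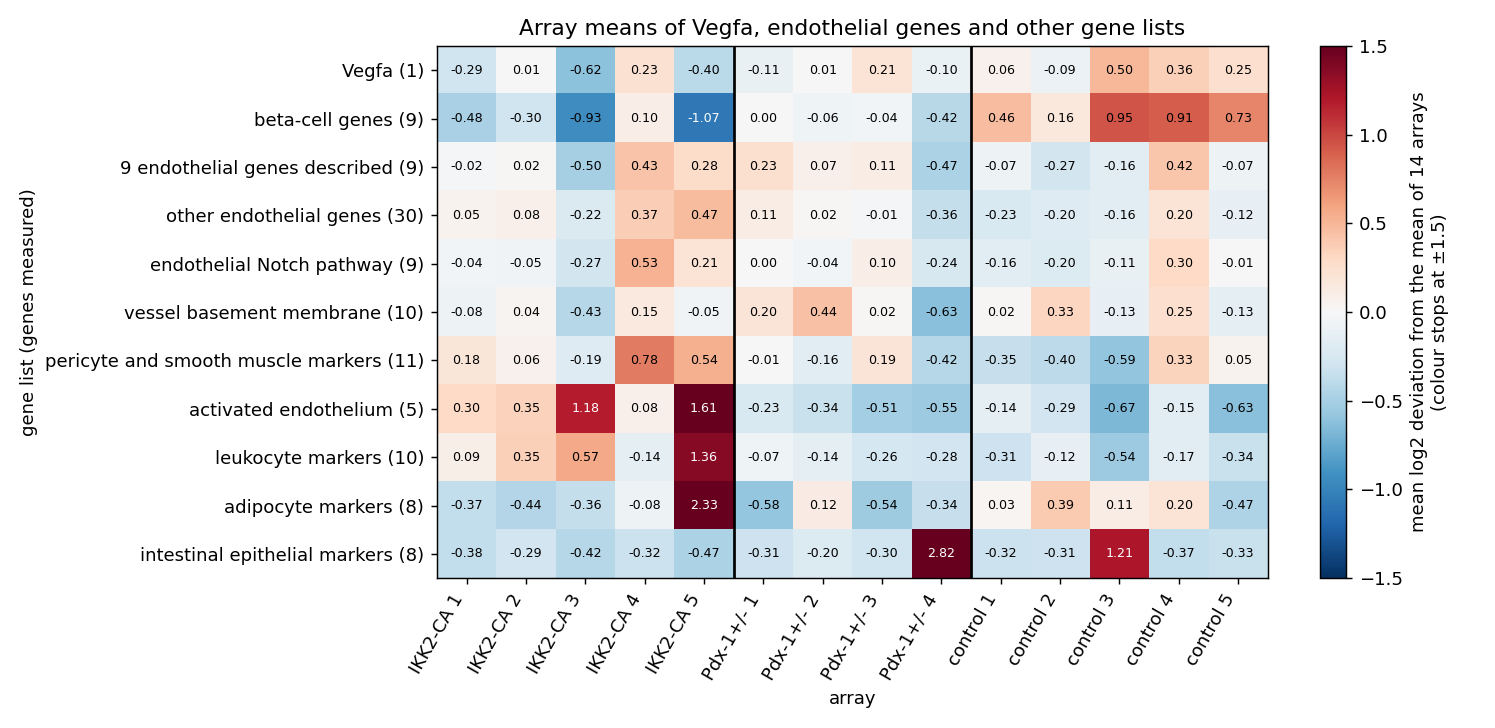
Mean deviation from the 14-array mean (log2) of gene lists, 1 row a list, on each array, 1 column an array, with IKK2-CA, Pdx-1+/- and control arrays from left to right. Blue is below and red above the mean. The activated endothelium list separates IKK2-CA arrays (0.08 to 1.61) from Pdx-1+/- (−0.55 to −0.23) and control arrays (−0.67 to −0.15), whereas the 9 endothelial genes overlap.

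The ligands, receptors and pathways around the 10 genes showed few calls. Of 7 other VEGF family genes 5 were above 0 in IKK2-CA against control islets (median 0.12), none passed in limma and 2 had an unadjusted p under 0.05. Pgf, placental growth factor, a ligand of Flt1, was between 7.04 and 7.71 on IKK2-CA, between 7.11 and 7.77 on Pdx-1+/- and between 6.66 and 7.09 on control arrays, which put every Pdx-1+/- array above every control array. Pgf was 0.55 in Pdx-1+/- against control islets (SE 0.15, limma adjusted p 0.378) and 0.36 in IKK2-CA against control islets (SE 0.14, limma adjusted p 0.206). Flt4, the receptor VEGFR3, was 0.43 (SE 0.20, limma adjusted p 0.317) in IKK2-CA against control islets, and 0.24 without IKK2-CA array 4.

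Of 5 angiopoietin pathway genes 3 were above 0 in that comparison (median 0.12), among them the Tek agonist Angpt1 at 0.59 (SE 0.20, limma adjusted p 0.157), while Angpt2, which can oppose it, was −0.29 (SE 0.17, limma adjusted p 0.463). Of 9 endothelial Notch genes 8 were above 0 (median 0.10), with the ligand gene Jag1 at 0.37 (SE 0.20) and the target gene Hes1 at 0.31 (SE 0.15). Of 16 other angiogenic factors and receptors 9 were above 0 (median 0.10), led by the chemokine receptor Cxcr4 at 0.71 (SE 0.23, limma adjusted p 0.134) and the growth factor Pdgfc at 0.52 (SE 0.16, limma adjusted p 0.117). Of 8 angiogenesis inhibitors 2 were above 0 (median −0.03). Single arrays moved several of these values: without IKK2-CA array 3 Angpt1 was 0.38, and without IKK2-CA array 4 Angpt2 was −0.46, Jag1 0.21 and Cxcr4 0.85, Cxcr4 then passing with a limma adjusted p of 0.0431. With array weights Cxcr4 passed too (0.68, limma adjusted p 0.0256). With all arrays, none of the genes in these 4 lists passed in IKK2-CA against control islets in limma, and 1, 0, 4 and 1 had an unadjusted p under 0.05 in the lists in that order.

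Of 16 hypoxia response genes 10 were above 0 in IKK2-CA against control islets (median 0.12), but 8 of 16 without the 2 arrays that stood apart (median 0.02). With all arrays 1 of the 16 passed, beside 2.25% of all genes: Ankrd37, a target of hypoxia-inducible factors, fell by 0.29 (SE 0.07, limma adjusted p 0.0421). It was between 5.50 and 5.79 on IKK2-CA, between 5.95 and 6.04 on Pdx-1+/- and between 5.85 and 6.02 on control arrays. Ankrd37 passed in 8 of 25 alternatives, and its adjusted p was 0.0732 without the 2 arrays that stood apart. Its call was lost without any single array except IKK2-CA array 4, Pdx-1+/- array 4 and control array 2, with limma adjusted p-values of 0.0527 to 0.137. Pdk1 and Ldha, which are also targets of that pathway, were 0.38 (SE 0.24, limma adjusted p 0.496) and 0.33 (SE 0.15, limma adjusted p 0.314), and Pdk1 was 0.23 without IKK2-CA array 3.

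Of 10 genes of the vessel basement membrane, on which islet capillaries and β-cells rest, 2 were above 0 in IKK2-CA against control islets (median −0.18), 3 in IKK2-CA against Pdx-1+/- islets (median −0.09) and 3 in Pdx-1+/- against control islets (median −0.12). Without the 2 arrays that stood apart, 1 was above 0 in IKK2-CA against control islets (median −0.14), 0 in IKK2-CA against Pdx-1+/- islets (median −0.41) and 9 in Pdx-1+/- against control islets (median 0.13). Nid1 and Lamc1, which encode the linker nidogen and a laminin chain, were −0.34 each in IKK2-CA against control islets (SE 0.22 and 0.24), and Lamc1 was −0.21 without IKK2-CA array 3. No basement membrane gene passed in limma or had an unadjusted p under 0.05 in any comparison. Of 4 lymphatic endothelial markers 1 was above 0 in IKK2-CA against control islets, and 0 passed in limma or had an unadjusted p under 0.05.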

How the data were processed

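Islet RNA was hybridised to Affymetrix Mouse Gene 1.0 ST arrays. Per the submitters' processing notes Affymetrix Expression Console was used (version not given in the sources used here), and per the labels the authors normalised the deposited values by RMA. No log base is named for the deposited values, and they are read as log2 because of the range they span. Of 35556 transcript clusters, 21789 had 1 gene symbol in the platform's gene table, 1621 had several and 12146 were not listed, and only those with 1 symbol were kept. For the 999 genes with several clusters the one with the highest mean was kept.

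All 14 arrays were fitted with 3 group means in limma 3.58.1 (lmFit, eBayes) under R 4.3.3, with 11 residual and 3.46 prior degrees of freedom and p-values adjusted over all 19938 genes. No signal filter was set, and the number of arrays limits the precision. The fit was tested on simulated data. Members, lists and the arrays left out were chosen with earlier results of these data known. Named from each list were up to 4 genes that passed, by lowest p, or the 2 with the largest IKK2-CA minus control difference where fewer than 2 passed. Also named were 5 genes most like Vegfa and 5 most like the endothelial mean. Correlations used 100000 within-group permutations. Folds are log2 differences put back on the linear scale. Alternatives covered normalization, variance model, array weights, filters, cluster choice, a replicate block and arrays left out. Promoters are RefSeq's, on GRCm38.p6. Vash1 and Selp were not analysed here.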

Additional observations from a re-analysis of the deposited data

Results flagged for a closer look

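For 62 genes named or listed here, each group of 4 or 5 arrays was searched for a lowest or highest array far from the rest by Dixon's criterion. Chance alone flags about 1 in 20 groups, which is 9.3 of the 186 examined, and 19 were found. Some genes, among them Fabp2 and Adipoq, were named because of arrays that stood apart, and many of the genes move together. The 19 beside 9.3 is therefore no test of an excess. Of the 10 vessel genes only Tie1 was among them, with control array 4 at 7.49 beside 7.04 to 7.13 on the other control arrays. The same array was high in Epas1, at 9.82 beside 8.89 to 9.08.

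Among vessel-related genes, S1pr1 was 7.74 on Pdx-1+/- array 4 beside 8.02 to 8.08 on the other Pdx-1+/- arrays. Zswim8 and Specc1l, named only for their correlation with the endothelial mean, were low there too. Zswim8 was 7.68 beside 7.98 to 8.02, and Specc1l was 8.37 beside 8.63 to 8.67. Jag1 was 8.18 on Pdx-1+/- array 3 beside 7.75 to 7.80. Angpt1 was 5.23 on control array 5 beside 4.83 to 4.90 on the other control arrays.

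Markers of other cells set 3 arrays apart. On IKK2-CA array 5, Adipoq was 10.6 (5.40 to 6.71 on the other IKK2-CA arrays), Plin1 9.34 (6.25 to 6.40), Fabp4 11.14 (8.43 to 9.05), Itgax 9.36 (7.29 to 7.80), Mafa 6.09 (6.65 to 6.83) and Cela1 13.16 (13.38 to 13.47). On Pdx-1+/- array 4, Sis was 9.15 (3.31 to 3.45 on the other Pdx-1+/- arrays), Apoa4 9.21 (4.99 to 5.29) and Fabp2 9.09 (3.64 to 3.76). On control array 3, Sis was 6.05 (3.30 to 3.37 on the other control arrays), Apoa4 8.08 (4.92 to 5.22) and Fabp2 6.58 (3.59 to 3.86). The part of these markers in the vessel results was not tested beyond leaving the arrays out.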

How the results depend on the processing

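Each result was recomputed under 25 alternatives, 14 of which leave out 1 array. Of 750 values for the 10 genes, 704 kept direction and side of the threshold, 41 turned direction (24 of them without 1 array) and 5 passed the threshold. No gene passed in IKK2-CA against Pdx-1+/- or Pdx-1+/- against control islets. In IKK2-CA against control islets 1 passed with quantile normalization (Vwf), 1 with the replicate block (Vwf) and 0 to 2 without 1 array (Vwf without control array 4, Vegfa and Esm1 without IKK2-CA array 4). Vegfa ran from −0.54 to −0.33 in that comparison without 1 array, and was −0.31 without the 2 arrays that stood apart and control array 3.

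Genes passing in IKK2-CA against Pdx-1+/- islets numbered 15 in all, 1 with only the 2 groups fitted, 52 with array weights, 9 with the replicate block, 52 and 48 without the 2 and 3 arrays that stood apart (the third being control array 3) and 2 to 66 without 1 array. In IKK2-CA against control islets they numbered 448, with 241 for only the 2 groups, 1431 with array weights, 197 with the replicate block, 186 without 3 arrays and 120 to 980 without 1 array. In Pdx-1+/- against control islets they numbered 19, with 73 under array weights, 9 with the replicate block, 11 without 3 arrays and 9 to 48 without 1 array. The cause was not tested.

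All values that turned direction missed the threshold. In IKK2-CA against Pdx-1+/- islets Kdr was −0.003 with centred medians, −0.019 with quantile normalization, −0.17 with array weights, −0.31 without 2 or 3 arrays and −0.29 to 0.16 without 1 array. Plvap was −0.004, −0.023, −0.091, −0.19 and −0.125 to 0.069 under the same alternatives and −0.052 with the replicate block. Without 1 array Flt1 ran from −0.21 to 0.15 and Tek from −0.287 to 0.068. In IKK2-CA against control islets Plvap was −0.017 with array weights, −0.074 without 2 arrays, −0.061 without 3 and −0.074 to 0.131 without 1, Flt1 ran from −0.24 to 0.05 and Tek from −0.181 to 0.089 without 1 array. In Pdx-1+/- against control islets Flt1 was 0.008 with array weights, 0.084 without 2 arrays, 0.094 without 3 and −0.189 to 0.084 without 1, Tek ran from −0.098 to 0.207 and Tie1 from −0.037 to 0.163 without 1 array.

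Replicate numbers recur in the 3 groups. Correlations of same-numbered arrays, group means removed, ran from −0.391 to 0.356. The labels do not state that the numbers pair the samples, and with so few arrays these correlations cannot decide it. Signal over background was not analysed here, and the number of arrays limits which differences can be seen.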
